A study of Mus musculus with 4 samples.

Results

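The response to interleukin-4 (IL-4) was measured in mouse peritoneal macrophages labelled Dap12-KO, as the difference between 2 of the 4 arrays of the study: the array titled Dap12-KO IL-4 and the array titled Dap12-KO untreated. The other 2 arrays hold wild type macrophages, untreated and with IL-4. Both kinds of cells were thioglycolate-elicited cells from the peritoneal cavity, kept for 18 hours on Permanox plastic slides, and their total RNA went through 2 cycles of in vitro amplification before hybridisation as biotin-labelled cRNA to 1-colour Affymetrix arrays. The stated purpose was to learn what loss of DAP12 does to macrophage gene expression at rest and with IL-4, and the design text calls the loss a knockdown where the sample titles call it a knockout. Strain, sex and age of the mice, the allele, the IL-4 dose and whether mice were pooled are not given in the sources used here. Each group is 1 array, so there is no replicate error, no test was possible, and how precise a value can be is limited by having so few arrays.

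IL-4 is a type 2 cytokine. It binds the IL-4 receptor, activates JAK kinases and the transcription factor STAT6, and drives the alternative activation of macrophages, with arginine metabolism, mannose and lectin receptors, chitinase-like and resistin-like secreted proteins and type 2 chemokines, and it can make macrophages fuse into multinucleated giant cells. DAP12, encoded by Tyrobp, is a membrane adaptor with an ITAM motif that carries signals of TREM2, SIRP-beta and other receptors to the kinase SYK, and it takes part in the fusion of macrophages and osteoclasts.

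Values are log2 probe set levels, and a gene is represented by its brightest probe set, by the mean of all 4 arrays. The targeted gene, Tyrobp, read 14.39 on the wild type untreated array, 14.13 on the wild type IL-4 array, 14.03 on the untreated Dap12-KO array and 13.27 on the Dap12-KO IL-4 array. The Tyrobp signal therefore did not bear out the Dap12-KO label at this probe set, whose position relative to the deleted part is not known here, so "Dap12-KO" below stands for the arrays labelled Dap12-KO. Between these arrays Tyrobp was lower by 0.76 with IL-4 as deposited and by 0.39 after cyclic loess. Cyclic loess is a rescaling meant to remove differences between arrays that depend on level. All 12 macrophage markers measured were above the level floor of 6.39 (the median of all values) on both Dap12-KO arrays, among them Adgre1 (F4/80) at 13.54 untreated and 13.01 with IL-4, and Csf1r, the receptor for macrophage colony-stimulating factor, at 14.60 and 14.20. In RNA from a whole culture, fewer cells of a type and less RNA per cell cannot be told apart.

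The Dap12-KO IL-4 array had a narrower range than the rest, with an interquartile range of 2.54 against 3.19 to 3.25, and 1057 probe sets at 12 or more against 1562 to 1627. Of 18 probe sets for bacterial control RNAs added at hybridisation, 17 read lower on the Dap12-KO IL-4 array than on the untreated one, with a median of −0.42 that became 0.03 after cyclic loess. Of 24 probe sets for poly-A control RNAs, 22 read lower, with a median of −0.93 as deposited and −0.56 after cyclic loess, while all 24 were lower in the wild type pair with a median of −0.38. The 3′ minus 5′ difference was 0.63 untreated and 0.51 with IL-4 for Actb, and 1.55 and 1.63 for Gapdh. The part of these differences in the gene results was not tested.

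Over the 12767 genes above the floor the median difference, Dap12-KO IL-4 minus untreated, was −0.40 as deposited and 0.09 after cyclic loess. As deposited, genes of like level had medians from 0.56 in the lowest of 20 bins to −0.70 at levels of 8.69 to 8.96. After cyclic loess these medians stayed at 0.21 to 0.37 at levels up to 7.82 and lay between −0.04 and 0.02 above. The all-gene medians are therefore a rough yardstick for a list, whose members can lie at other levels. As deposited, 1026 genes (8.04%) were higher at 2-fold or more and 2249 (17.6%) were lower. After cyclic loess 1250 (9.79%) were higher and 754 (5.91%) lower, and against the median of genes of like level in 20 bins 1019 (7.98%) were higher and 1164 (9.12%) lower, so which direction held more genes turned with the scaling. Of 26535 probe sets above the floor, 2015 (7.59%) were higher and 4893 (18.4%) lower as deposited, and 2340 (8.82%) and 2024 (7.63%) after cyclic loess. The genes at 2-fold in the same direction both as deposited and after cyclic loess numbered 800 higher (6.27%) and 720 lower (5.64%). Below, "in both scalings" refers to this requirement, every count of list members given so is to be read against these shares, and 552 of the higher and 712 of the lower genes also met it in the other 4 scalings tried. The median gene among the 800 was higher by 1.37, a 2.59-fold difference, and the median among the 720 was lower, at −1.80. In 256 of the higher genes the untreated level lay below the floor, and in 271 of the lower genes the IL-4 level did, so the size of those differences rests on a background reading.

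**Figure D1:**
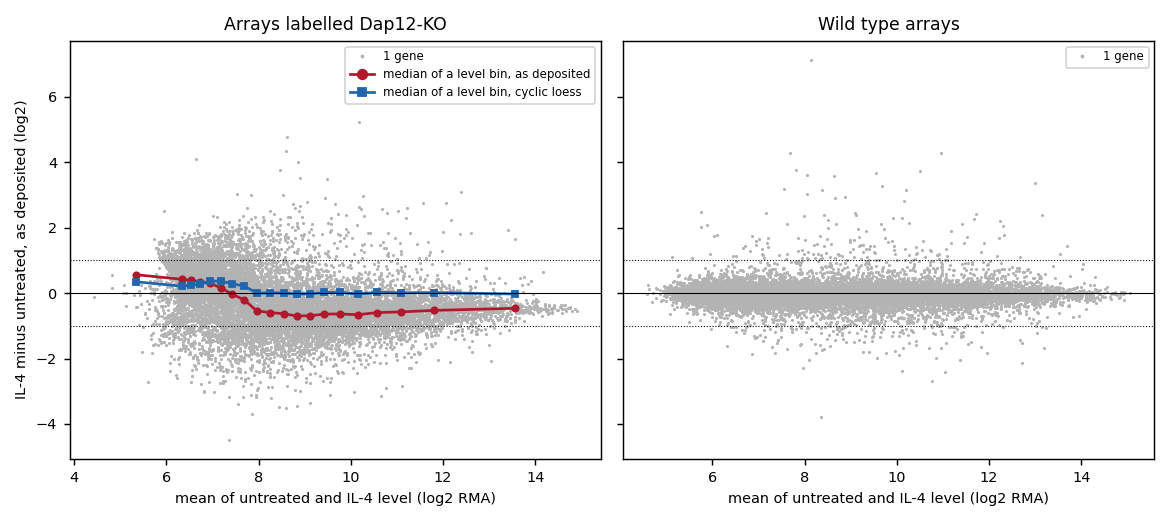
Difference between the IL-4 and untreated arrays (log2, as deposited) against the mean of both levels (log2 RMA) for 12767 genes, 1 point a gene, on the Dap12-KO arrays (left) and the wild type arrays (right). Dotted lines mark 2-fold, and the lines joined by markers are medians of 20 level bins. As deposited, the bin median on the Dap12-KO arrays went from 0.56 in the lowest bin to −0.70 at levels from 8.69 to 8.96 and −0.47 in the top bin, and cyclic loess brought it to between −0.04 and 0.37.

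The alternative activation genes were mostly higher with IL-4 in both scalings. Of 37 list members above the floor, 22 were higher at 2-fold in both scalings and 2 were lower, with a median difference of 1.42 as deposited and 1.97 after cyclic loess. The 22 belong to several arms of the programme: arginine and creatine metabolism, secreted chitinase-like and resistin-like proteins, lectin receptors, type 2 chemokines, adhesion and fusion genes and a checkpoint ligand. On the wild type arrays, which share no array with this comparison, 22 of the 37 were 2-fold higher as deposited and the median was 1.34. The list was chosen with earlier results of these data known, and is no independent evidence of its direction.

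STAT6 is known to bind a palindrome of TTC and GAA with 4 bases between them, and other STAT proteins prefer a spacing of 3. Promoter windows of 250 bases before the start were found for 15 of the 22 genes (RefSeq, GRCm38.p6), and 6 of the 15 held the form with 4 bases between, those of Tmem26, Edn1, Pdcd1lg2, Retnla, Ccl17 and Plekhf1. The form with 3 between was found in 2, Chil3 and Ccl17. The stretches shown were chosen because they hold one of these forms, and windows without a match, such as those of Rnase2a, Ch25h and Ddx4, are not shown; each stretch is read 5′ to 3′ on the gene's strand, with the palindrome in capitals, and a match is a description, not a site. Both forms read the same on either strand. The Tmem26 window held the 4-base form at 227 and at 41 bases before the start, the second at chr10:68723680-68723739 (plus strand). The other stretches are Edn1 at chr13:42301266-42301325 (plus), Pdcd1lg2 at chr19:29410812-29410871 (plus), Retnla at chr16:48842439-48842498 (plus), Ccl17 at chr8:94810274-94810333 (plus), Plekhf1 at chr7:38228079-38228138 (minus) and, with the 3-base form, Chil3 at chr3:106167703-106167761 (minus). For comparison the last line gives Nxpe4 at chr9:48361803-48361862 (plus), the gene with the lowest difference in the whole comparison, whose window held the 4-base form too.
Tmem26: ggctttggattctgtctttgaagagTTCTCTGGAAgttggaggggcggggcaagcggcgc
Edn1: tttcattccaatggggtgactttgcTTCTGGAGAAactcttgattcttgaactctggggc
Pdcd1lg2: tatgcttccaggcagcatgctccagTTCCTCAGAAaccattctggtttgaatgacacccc
Retnla: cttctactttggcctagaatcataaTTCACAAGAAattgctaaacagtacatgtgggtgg
Ccl17: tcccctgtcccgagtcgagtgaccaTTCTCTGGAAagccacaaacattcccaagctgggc
Plekhf1: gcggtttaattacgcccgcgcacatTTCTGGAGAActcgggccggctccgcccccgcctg
Chil3: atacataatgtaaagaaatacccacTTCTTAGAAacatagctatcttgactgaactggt
Nxpe4: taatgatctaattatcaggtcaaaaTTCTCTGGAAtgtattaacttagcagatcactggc

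Over all 32851 promoter windows of the same length, 5.854% held the 4-base form and 7.02% the 3-base form. By gene, 570 of 10279 genes above the floor with a window had the 4-base form (5.545%), against 23 of 590 genes higher in both scalings (3.898%) and 29 of 581 lower ones (4.991%). Among the genes that were 2-fold higher in both scalings on the Dap12-KO and on the wild type arrays, 9 of 50 with a window had it (18.0%). Among genes lower in both genotypes it was 5 of 57 (8.77%). The 3-base form was found for 7.16% of all genes above the floor, for 6 of 50 genes higher in both genotypes and for 9 of 57 lower in both (15.8%). The genes called in both genotypes thus had larger shares than all genes in either direction and for either form, and these shares are descriptions with no test.

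Of the 11 IL-4 receptor and JAK-STAT6 list members above the floor, none was 2-fold in both scalings. As deposited 4 were lower, and after cyclic loess 2 were higher. Their median was −0.64 as deposited, 0.00 after cyclic loess and −0.04 against level bins. Il4ra, the receptor's alpha chain, read 8.92 untreated and 8.68 with IL-4. Il13ra1, the chain it pairs with in the type II receptor, read 8.72 and 7.11, a difference of −1.61 as deposited and −0.97 after cyclic loess. Stat6 read 11.58 and 10.55, and Jak2 read 10.66 and 11.36, the one kinase of the list with a positive difference above 0.5 as deposited. Irs2, an adaptor of the IL-4 receptor, read 8.09 and 8.97, with differences of 0.89 and 1.36.

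The feedback inhibitors that STAT proteins induce were partly higher. Cish read 7.74 untreated and 11.23 with IL-4, an 11.2-fold difference as deposited. Socs2 read 6.34 and 9.33, with all 5 of its probe sets above the floor higher, and its untreated level lay just below the floor. Socs1 read 6.46 and 8.68, a difference of 2.22. These 3 of 8 SOCS family members were higher at 2-fold in both scalings, and Socs3 was at 2-fold after cyclic loess (1.06) and against level bins (1.04) but not as deposited (0.40). Socs4, Socs5, Socs6 and Socs7 had deposited differences between −0.88 and −0.47 and rescaled ones between −0.24 and 0.20. Wild type values for the family differed most at Socs6, with 1.21 there against −0.55 here as deposited.

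Of 17 transcription factors of the IL-4 programme, 5 were higher in both scalings and none lower, and the number higher after cyclic loess, whatever the deposited value, was 9. Batf3, an AP-1 family factor known from dendritic cells, read 7.67 untreated and 10.44 with IL-4. Irf4, a STAT6 target that promotes alternative activation, read 8.86 and 11.49 at its brightest probe set, a difference of 2.63, while its other probe set stayed near the floor at 6.36 and 6.51. Nfil3, a basic leucine zipper repressor, read 7.03 and 9.02. Klf4, a Krüppel-like factor that cooperates with STAT6, was higher by 1.53, with both probe sets alike at 1.46 and 1.53, and its wild type difference was 0.53. Kdm6b, a histone H3K27 demethylase, read 9.71 and 10.79. The nuclear receptor Pparg (0.35 as deposited) and its coactivator Ppargc1b (0.68 as deposited, 1.34 rescaled) were at 2-fold after cyclic loess and against level bins but not as deposited, and the same held for Egr2 (0.77 as deposited, 1.20 rescaled) and Myc (0.56 and 1.22).

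The classical effectors of alternative activation were higher with IL-4 on the Dap12-KO arrays. Arg1, arginase 1, read 12.45 untreated and 14.37 with IL-4, a difference of 1.93, against 3.35 in wild type, where the untreated array read 11.31. Slc7a2, the arginine transporter CAT2, read 10.18 and 12.94, and all 4 of its probe sets above the floor were higher, by 2.81 on average. Gatm, which makes the creatine precursor guanidinoacetate from arginine, read 7.57 and 10.22. These were the 3 of 14 members of the arginine, polyamine and creatine list that were higher in both scalings. Slc7a1, the second arginine transporter, differed by 0.74 and the spermidine synthase Srm by 0.58 as deposited (1.29 and 1.19 after cyclic loess). Odc1, which starts polyamine synthesis, read 11.88 and 12.01, and Nos2, the nitric oxide synthase that competes for arginine, had no level above the floor but the IL-4 value of 6.54.

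Among the secreted and surface proteins, Chil3 (Ym1, a chitinase-like protein) read 10.85 untreated and 13.93 with IL-4, an 8.49-fold difference as deposited. Retnla (Fizz1) read 11.34 and 12.62, higher by 1.29 against 0.66 in wild type. Mrc1, the mannose receptor, read 11.47 and 13.26, close in size to its wild type difference of 2.21. The galactose lectins Mgl2 and Clec10a differed by 2.60 and 1.30. Clec7a, the beta-glucan receptor dectin-1, read 13.72 and 14.09 (0.37 as deposited, 0.74 rescaled). Pdcd1lg2 (PD-L2), an inhibitory ligand for T cells, read 6.04 and 9.05, from a background reading. Alox15, the 12/15-lipoxygenase, read 8.98 and 10.07, and Flt1, a VEGF receptor, read 6.23 and 8.35, with differences from 0.90 to 2.65 over its 4 probe sets.

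Tmem26, a membrane protein, had the highest difference of any gene above the floor that was 2-fold in both scalings. It read 7.57 untreated and 12.80 with IL-4, a 37.6-fold difference as deposited, and its other probe set read 5.79 and 10.73. Rnase2a, an eosinophil-type ribonuclease, went from a background reading of 6.23 to 10.98, and the endothelin precursor Edn1 from 6.59 to 10.34. Ddx4, a germline RNA helicase, read 4.60 and 8.71, against 4.58 and 11.71 in wild type. The lower pair of the list was Stab1, a scavenger receptor (10.40 and 8.31), and F13a1, coagulation factor XIII A (10.35 and 8.66). Of the rest of the list, Tgm2, transglutaminase 2, read 13.58 and 13.82 here against 12.95 and 14.14 in wild type. Igf1 (−0.01), Cd36 (−0.31), Mmp12 (−0.24), Cd163 (−0.24) and Il1rn (−0.37) had small negative differences as deposited, which became positive after cyclic loess, at 0.46 or less.

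**Figure D2:**
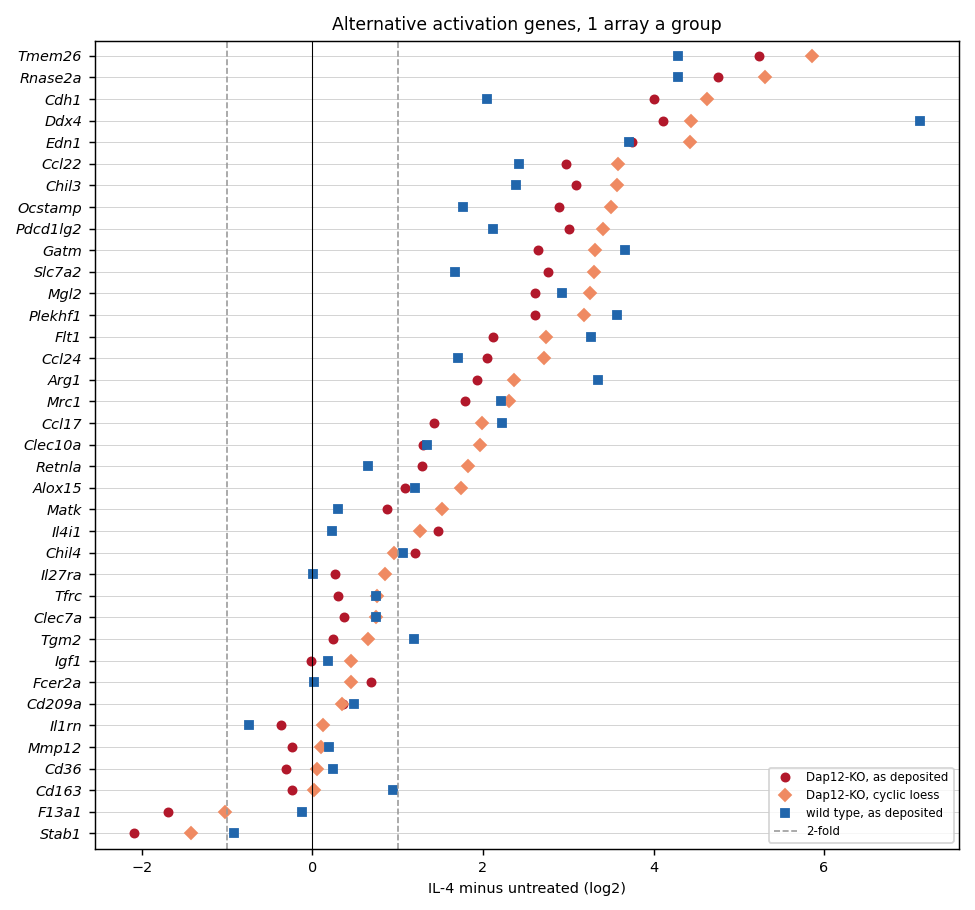
IL-4 minus untreated (log2) for the 37 alternative activation genes above the floor, ordered by the cyclic loess value: Dap12-KO as deposited (circles), Dap12-KO after cyclic loess (diamonds) and wild type as deposited (squares), 1 array a group. Dashed lines mark 2-fold. Dap12-KO values ran from 5.23 for Tmem26 to −2.09 for Stab1 as deposited. The wild type squares of several genes, among them Ddx4 (7.13) and Arg1 (3.35), lie to the right of both Dap12-KO markers. Those of others, such as Tmem26, lie to the left of both.

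Type 2 and monocyte-attracting chemokines were higher, and CXC chemokines were not. Of 22 chemokine genes above the floor, 6 were higher in both scalings, all of them CC chemokines, and none was lower. Ccl7 read 7.13 untreated and 10.64 with IL-4, Ccl2 read 9.46 and 11.29, and Ccl4 read 9.20 and 10.86; these attract monocytes and other leukocytes. Ccl22 and Ccl17, ligands of CCR4 on type 2 T cells, differed by 2.98 and 1.42, and Ccl24 (eotaxin-2), an eosinophil attractant, by 2.05. Ccl3 (0.70 as deposited, 1.25 rescaled) passed only after cyclic loess. Of the CXC members, Cxcl13 differed by −1.09 and Cxcl14 by −1.22 as deposited, which became −0.52 and −0.60.

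Chemokine and chemoattractant receptors had the lowest median of the 31 lists, −1.23 as deposited and −0.98 after cyclic loess, and 6 of 12 members were lower in both scalings with none higher. Cxcr4, the receptor for CXCL12, read 10.35 untreated and 6.84 with IL-4. Fpr2, a formyl peptide receptor, read 8.75 and 6.42, against 10.26 and 6.47 in wild type. C5ar1, the C5a receptor, read 9.78 and 7.72, and the decoy receptor Ccrl2 read 10.84 and 8.79. The remaining pair, Ccr9 and Cxcr5, had IL-4 readings below the floor, from untreated levels of 6.71 and 7.16, with differences of −1.51 and −1.16. Ccr2, the receptor for CCL2, differed at its brightest probe set by −1.29 here (−0.70 rescaled) and by 0.80 in wild type. Its other probe sets above the floor differed here by −0.52 and 0.42 as deposited (−0.08 and 0.98 rescaled). Ccr1 read 11.12 and 11.53. On the wild type arrays the list's median was −0.27.

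Of 18 pattern recognition receptors, 5 were lower in both scalings and 1 higher, against 5.64% and 6.27% of all genes. Clec4n (dectin-2) read 10.87 untreated and 8.27 with IL-4, and its other probe set 9.09 and 5.29. Clec4d (MCL) read 14.07 and 11.99, Tlr2 read 12.36 and 10.56, Tlr13 read 12.40 and 10.12 and Tlr1 read 9.92 and 8.13. Their wild type differences had the same sign, from −1.97 for Tlr2 to −0.90 for Tlr1. Tlr9, the DNA sensor, was the one higher member, at 7.67 and 9.23, while it read 7.59 and 7.55 in wild type. Tlr4 (−0.69 as deposited, −0.02 rescaled) and Cd14 (−0.74 and −0.27) were not 2-fold in either scaling.

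The 12 highest genes that were 2-fold in both scalings were Tmem26, Rnase2a, Ch25h, Ddx4, Cdh1, Edn1, Ccl7, Cish, Chil3, Pdcd1lg2, AA467197 and Socs2. Ch25h, cholesterol 25-hydroxylase, read 6.42 untreated and 10.77 with IL-4, a 20.4-fold difference, while the wild type arrays read 9.48 and 9.80. Cdh1, E-cadherin, read 6.85 and 10.85, against 11.28 and 13.33 in wild type; the Dap12-KO IL-4 level was below the untreated wild type one as deposited and above it after cyclic loess (11.37 against 11.07). AA467197 read 7.04 and 10.03, and 8.77 and 11.05 in wild type. The 12 lowest were Nxpe4, Fli1, Cxcr4, Ncapg2, Dbp, Thbd, Sema4d, Dna2, Tmem154, Jag1, Lysmd3 and Cd24a. Nxpe4 read 9.59 untreated and 5.11 with IL-4, against 6.36 and 5.63 in wild type. Fli1, an ETS factor of blood cells, read 9.72 and 6.01, against 8.14 and 7.92. Dbp, a clock output factor, read 10.54 and 7.10, against 7.49 and 7.01. Cd24a, a sialoglycoprotein, read 12.22 and 9.09 with wild type values of 12.39 and 10.34, and its 3 probe sets differed by −4.65 to −3.06.

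**Figure D3:**
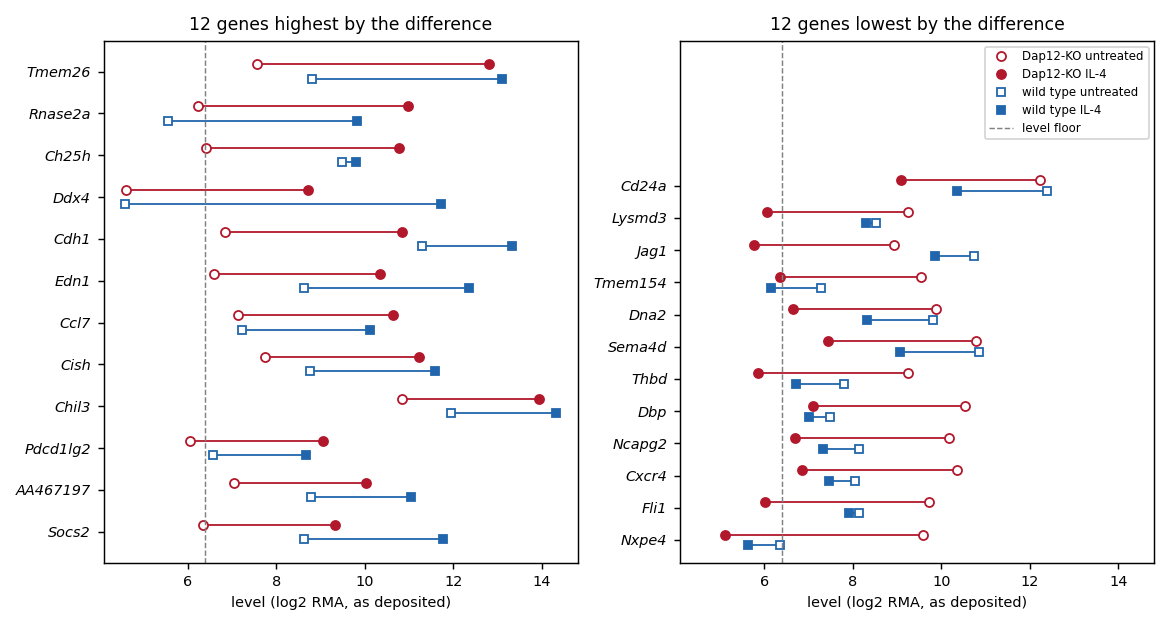
Levels (log2 RMA, as deposited) of the 12 highest and 12 lowest genes by the Dap12-KO difference, among genes 2-fold in both scalings; open symbols are untreated, filled symbols IL-4, circles the Dap12-KO arrays, squares the wild type arrays, 1 array each, and the dashed line is the floor of 6.39. Ch25h read 6.42 and 10.77 on the Dap12-KO arrays and 9.48 and 9.80 on the wild type ones, and Fli1 read 9.72 and 6.01 against 8.14 and 7.92.

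Cell fusion, adhesion and matrix genes were higher in part. Of 27 fusion and osteoclast genes, 4 were higher in both scalings, Cdh1, Ocstamp, Itgb3 and Ccl2, and none was lower. Ocstamp, a multi-pass protein needed for fusion, read 7.98 untreated and 10.88 with IL-4, against 11.45 and 13.21 in wild type. Dcstamp, its partner in fusion, read 9.45 and 9.50, against 12.21 and 11.79. Itgb3, the beta-3 integrin chain, read 7.40 and 10.11, against 10.37 and 12.47. The Dap12-KO IL-4 level of these 3 genes was below the untreated wild type level as deposited, but after cyclic loess this held for Dcstamp alone (10.01 against 11.99), and the order turned for Ocstamp (11.37 against 11.23) and Itgb3 (10.65 against 10.16). Mmp9, a gelatinase, read 8.27 and 8.37, and 12.52 and 12.37 in wild type, and Tnfrsf11a (RANK) read 7.74 and 6.45, a difference of −1.28 that became −0.77. Of 12 matrix protease and inhibitor genes, Mmp13, a collagenase, was higher at 11.06 and 13.29, and Timp1, a protease inhibitor, at 9.91 and 11.46, where wild type read 13.28 and 13.02.

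The integrin chains split evenly. Itgb3, Itgax (CD11c, 11.08 and 12.34) and Itga7 (6.23 and 7.99, from below the floor) were higher in both scalings. Itgal (LFA-1 alpha chain, 10.88 and 8.97), Itga6 (12.14 and 10.45) and Itgb5 (12.55 and 10.94) were lower in both, out of 17 chains above the floor. After cyclic loess only 1 of the 2 Itgal probe sets was negative, with a mean of −0.46. Itgax read 13.01 and 13.02 in wild type. Itgam (CD11b), a macrophage marker, differed by −0.84 as deposited and −0.21 after cyclic loess.

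Inflammatory cytokines had 5 of 16 members higher and 2 lower in both scalings. The higher members were Il1a (8.54 untreated, 9.71 with IL-4), Il1b (7.67 and 8.72), Csf1, the macrophage growth factor (8.02 and 9.12), Csf2 (6.51 and 7.65) and Ifnb1 (a difference of 1.39 from 5.60, below the floor). Of these only Il1a was 2-fold in all 6 scalings. Csf2 (0.99) and Ifnb1 (0.97) fell short of 2-fold against level bins. Il18 (9.78 and 8.04) and Nfkbiz, an atypical IκB protein (10.63 and 8.62), were lower. Tnf read 10.29 and 10.56. The wild type differences of Ifnb1 and Csf2 were −0.06 and 0.33. Of 30 interferon-stimulated genes, 10 were 2-fold lower as deposited, but only Ifit2 (8.70 and 6.79) and Ddx60 (7.19 and 5.52, to below the floor) also after cyclic loess, and none was higher in both. The list's median was −0.86 as deposited, −0.31 rescaled and −0.64 in wild type, where 11 members were 2-fold lower. Zbp1 and Xaf1 had positive differences of 0.71 and 0.57 as deposited and 1.22 and 1.23 rescaled.

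Of 21 DAP12-associated receptor and ITAM signalling genes above the floor, 7 were 2-fold lower as deposited and 1 in both scalings, against 5.64% of all genes. Their median was −0.61 as deposited, −0.32 after cyclic loess and −0.28 against level bins. On the wild type arrays the list's median was −0.44 as deposited, against −0.03 for all genes, and 5 members were 2-fold lower. The gene lower in both scalings here was Sirpb1a, a DAP12-coupled SIRP-beta receptor, at 10.40 untreated and 7.41 with IL-4. Its wild type readings were 9.32 and 8.09. Trem2 read 12.45 and 11.35, and Clec5a, another DAP12 partner, 9.23 and 7.93. Vav1, an exchange factor downstream of SYK, differed by −1.65 as deposited and −0.98 rescaled. Syk itself read 12.34 and 11.94, and Hcst, the sister adaptor DAP10, 9.12 and 8.64.

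Lineage factors and scavenger receptors of macrophages included several lower genes. Of 17 lineage transcription factors, Fli1, Maf (11.35 untreated, 8.91 with IL-4) and Irf8 (11.76 and 10.11) were lower in both scalings and Klf4 was higher. Maf read 9.16 and 9.01 in wild type. Spi1 (PU.1), the central factor of the lineage, read 11.22 on both arrays. Of 20 scavenger and efferocytosis receptors, Havcr2 (TIM-3, 9.44 and 6.49), Colec12 (9.60 and 7.24) and Stab1 were lower, and Mrc1 and Olr1 (LOX-1, 11.10 and 12.18) higher. Mertk, which mediates the uptake of dying cells, read 11.29 and 9.89, a difference of −1.40 that became −0.74. Of 17 Fc receptor and complement genes, Fcgr1 was lower (10.73 and 8.58) and Itgax higher, and of 11 MHC class II genes only H2-Ob was lower (9.29 and 6.90), while H2-Aa read 13.62 and 13.27.

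All 12 macrophage markers had negative deposited differences, with a median of −0.70 (−0.24 rescaled), and Fcgr1 was the one at 2-fold in both scalings. Of 15 markers of resident cavity macrophages, 5 were lower in both scalings, Ltbp1 (8.74 untreated, 6.36 with IL-4), Cd93 (13.20 and 11.10), Thbs1 (by −1.67), Itga6 and Padi4 (8.54 and 7.08), and Selp (8.27 and 9.28) and Alox15 were higher. One of 5 probe sets of Cd93 was 2-fold higher instead (6.37 and 7.63), and the other probe set of Thbs1 read 6.71 and 6.93. The factor that defines resident cavity macrophages, Gata6, read 8.27 and 7.70, and their receptor Timd4 read 8.46 and 8.10.

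Of 24 immediate early genes, 2 were higher in both scalings and 1 lower, shares close to those of all genes (6.27% and 5.64%); after cyclic loess, whatever the deposited value, 8 were higher. Ier3 read 10.68 untreated and 12.19 with IL-4, and the AP-1 member Fosl2 read 10.49 and 11.68. Egr3 was lower at its brightest probe set, at 9.38 and 7.58, but its other probe set was 2-fold higher in both scalings (7.14 and 8.34), while Egr1 differed by 0.83 as deposited and 1.40 rescaled. Spry2 and Dusp6, feedback inhibitors of ERK signalling, read 6.73 and 5.67, and 7.63 and 6.33, and both were 2-fold lower in 5 of 6 scalings but not after cyclic loess over the 4 arrays (−0.73 and −0.67). Of 17 clock genes, Nfil3 was higher and Dbp and Rora (8.79 and 6.93) lower in both scalings, and another probe set of Rora was higher (6.82 and 8.78). The list's median was −0.84 as deposited and −0.34 rescaled, against −0.13 in wild type, and the core factor Arntl read 8.11 and 8.38.

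Metabolic lists had medians from −0.68 to −0.61 as deposited, below the all-gene median of −0.40, and from −0.15 to −0.07 against level bins. Of 19 cholesterol synthesis and uptake genes, 6 were 2-fold lower as deposited and 0 after cyclic loess. Mvk, mevalonate kinase, was higher in both at its brightest probe set (8.40 untreated, 9.48 with IL-4). Only 1 of the 2 Mvk probe sets above the floor was positive as deposited, with a mean of 0.32. The list's median was −0.68, −0.07 rescaled and −0.65 in wild type. Among 13 LXR targets and oxysterol genes, Ch25h was higher, and Mylip, which degrades the LDL receptor (11.10 and 7.99), and Cyp27a1, sterol 27-hydroxylase (9.80 and 7.70), were lower. Cpt1a, which admits fatty acids to mitochondria, was the one of 18 fatty acid oxidation genes that was 2-fold in both scalings (11.33 and 9.43). Of 21 glycolysis and hypoxia genes, Pfkl (10.92 and 8.20), Pfkfb3 (9.76 and 7.99) and Bnip3 (10.09 and 8.27) were lower, and Hk2 read 10.70 and 11.37. None of 11 NRF2 and metallothionein genes was 2-fold in both scalings, and the list's median as deposited was −0.65 here and −0.73 in wild type.

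The lists of ribosomal, proteasome, lysosomal and respiratory genes had medians from −0.09 to 0.17 against level bins. The 45 cytosolic ribosomal protein genes had a median of −0.36 as deposited and 0.04 rescaled, the 34 proteasome genes −0.45 and 0.08, the 33 lysosomal genes −0.56 and −0.16 and the 77 respiratory chain and ATP synthase genes −0.36 and 0.20. None of the ribosomal and proteasome genes was 2-fold in both scalings. The 3 respiratory genes that were, Cox6a2 (8.04 untreated, 9.08 with IL-4), Cox8c (8.59 and 9.63) and Cox8b (6.28 and 7.76), are tissue-restricted isoforms. The lysosomal exception was Sgsh (9.50 and 7.95), and of 26 heat shock and ER chaperone genes Pdia4 was higher (8.54 and 9.87, and 8.38 and 9.72 in wild type). Of 21 cell division genes, Ccnd1 (7.13 and 8.26) and Ccne1 (by 1.01) were higher, and Ncapg2 (10.18 and 6.70) and Mcm4 (9.65 and 7.61) lower. The proliferation marker Mki67 read 8.09 and 7.27.

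**Figure D4:**
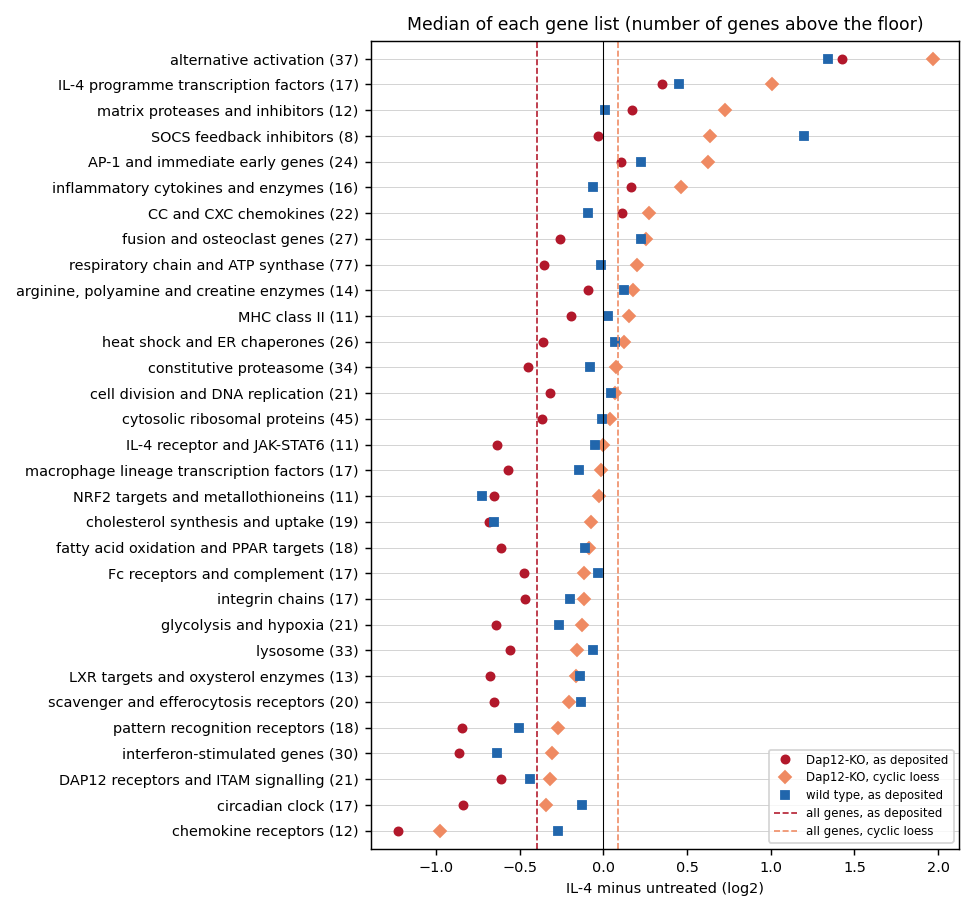
Median IL-4 minus untreated difference (log2) of each of 31 gene lists, with the number of genes above the floor in brackets: Dap12-KO as deposited (circles), Dap12-KO after cyclic loess (diamonds), wild type as deposited (squares). Dashed lines are the medians of all genes on the Dap12-KO arrays, −0.40 as deposited and 0.09 after cyclic loess; alternative activation lies farthest right (1.42 and 1.97) and chemokine receptors farthest left (−1.23 and −0.98).

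Markers of other cell types differed in both directions. Of 10 neutrophil markers measured, 5 reached the floor untreated and 8 with IL-4, the sum of their log2 values was 70.8 and 74.3, and Camp was 2-fold higher in both scalings (6.72 and 8.20) while S100a8 read 9.52 and 7.86. The T and NK markers summed to 54.0 and 58.3 over 9 genes, of which Cd8a was higher (6.79 and 8.05) and Cd3d stayed below the floor at 6.08 and 6.18. The mesothelium and fibroblast markers summed to 71.3 and 76.5 over 12 genes, with Msln below the floor on both arrays and Col3a1 higher by 1.24, from below the floor. The B cell markers summed to 69.8 and 67.0 over 8 genes, of which 6 reached the floor untreated and 8 with IL-4. Among them were Cd22 (11.43 and 10.84) and Ighm (10.70 and 10.35), and none was 2-fold in both scalings. The eosinophil marker Epx read 5.63 and 6.48 and Prg2 4.91 and 5.13, the latter below the floor on both arrays. Siglecf read 7.15 and 6.55. The sum over 6 genes was 40.1 and 37.9, and Cd24a was the one 2-fold lower in both scalings. The Cd24a difference of −3.14 was larger than the fall of the sum. The mast cell sum over 8 genes was 53.6 and 52.0, with Hdc higher and Cpa3 lower, and the dendritic cell sum over 9 genes was 59.2 and 63.9, with Batf3 higher. The sums use deposited values, in which dim genes as a whole read higher with IL-4. The median difference of genes was 0.56 in the lowest level bin and 0.30 at levels from 6.84 to 7.07. Against level bins, members above the floor had medians of 0.38 (neutrophils), 0.37 (T and NK), 0.15 (mesothelium and fibroblasts) and 0.14 (dendritic cells). For B, eosinophil and mast cell markers these medians were 0.09, −0.90 and −0.51. The part of other cell types in the results was not tested.

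Several probe sets of one gene give a check within the array, though they share the RNA. Of 5608 genes with 2 or more probe sets above the floor, 41 had all of them 2-fold higher in both scalings and 87 all 2-fold lower, while 48 had probe sets 2-fold in opposite directions. The 12 highest of the first kind were Tmem26, Slc7a2, Klk1b5, Hbegf, Serpina1b, Hoxc6, Sdc4, Cckbr, Stap2, Scrt2, Olfm1 and Ahdc1. Hbegf, a ligand of the EGF receptor, read 9.10 untreated and 11.45 with IL-4, and Sdc4, the heparan sulfate proteoglycan syndecan-4, read 9.02 and 10.70. Wild type was higher with IL-4 at both too (12.07 and 12.81, and 10.22 and 12.12). Hoxc6 (7.14 and 9.04), Scrt2 (7.55 and 9.31), Cckbr (6.85 and 8.75) and Serpina1b (5.95 and 8.26) are genes known mainly from other tissues, and their wild type levels lay between 5.61 and 7.08 on both arrays. The 12 lowest were Cd24a, Clec4n, Lysmd3, Rcbtb2, Fli1, Cd28, Pcmtd2, Fbxo32, Fyb, Kctd12b, Gdpd1 and Sephs2. Fyb, an adaptor for integrin activation, read 12.45 and 10.16, with 11.80 and 10.12 in wild type. Fbxo32 (atrogin-1), a ubiquitin ligase, read 9.81 and 7.46, with 7.36 and 6.94 in wild type.

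The same count was made on the wild type arrays. Of the 222 higher genes with 2 or more probe sets above the floor, 167 (75.2%) had all of them positive, and of the 338 lower genes 211 (62.4%) had all of them negative in both scalings. On the wild type arrays the shares as deposited were 60 of 64 (93.8%) and 55 of 67 (82.1%). The median SD of a gene's probe set differences was 0.37 here and 0.12 in wild type. Sema4d, a semaphorin, is an example: 1 probe set read 10.79 and 7.43, and the other above the floor 7.32 and 7.75. The lowest value of Jag1, a Notch ligand, rests on a probe set at 8.94 and 5.77, while another read 6.04 and 6.83. Of the 134 named genes at 2-fold in both scalings, 60 had 2 or more probe sets above the floor, and 11 of these had one with the other sign in both scalings: Cd93, Cox8c, Csf1, Egr3, Jag1, Maf, Pfkfb3, Rora, Sema4d, Sgsh and Thbs1.

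The 800 higher and 720 lower genes were set against the wild type pair by level. On the wild type arrays 155 genes (1.21%) were higher and 160 (1.25%) lower as deposited, and 166 (1.3%) and 141 (1.1%) after cyclic loess. In both scalings 67 genes were higher in both genotypes, which is 8.4% of the Dap12-KO genes and 43.2% of the 155 wild type genes, and 70 were lower in both, which is 9.7% and 49.6%. Of the 368 higher genes whose IL-4 level was under 8, 10 (2.72%) were also higher in wild type at 2-fold, against 26 of 76 (34.2%) at levels of 10 to 12 and 7 of 22 (31.8%) at 12 or more. Of the 238 lower genes whose untreated level was under 8, 3 (1.26%) were lower in wild type at 2-fold, against 13 of 26 at 12 or more. Wild type differences were negative for 144 of 238 (60.5%), 255 of 343 at 8 to 10 and 103 of 113 at 10 to 12. All 26 at 12 or more were negative. Among higher genes they were positive for 188 of 368 under 8 (51.1%) and 196 of 334 at 8 to 10 (58.7%). At 10 to 12 it was 62 of 76, and at 12 or more 20 of 22. Of the 800 higher genes, 702 (87.8%) had IL-4 levels under 10, as did 79.0% of all genes above the floor. Whether the genotypes differ at any gene could not be tested with 1 array a group.

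**Figure D5:**
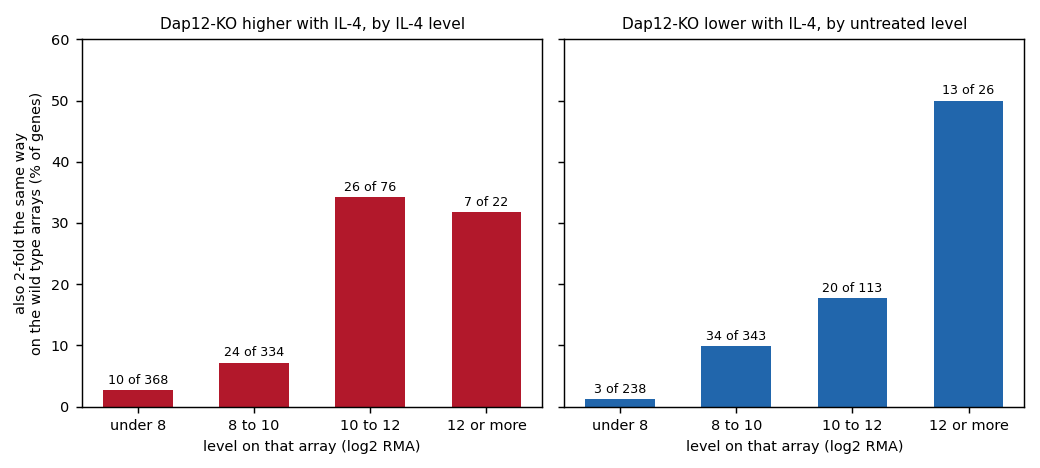
Share of the genes 2-fold higher (left) or lower (right) in both scalings on the Dap12-KO arrays that were also 2-fold the same way in both scalings on the wild type arrays (%), by level (log2 RMA) on the Dap12-KO IL-4 array for higher genes and on the untreated array for lower genes. Numbers over the bars are genes; the share went from 10 of 368 to 7 of 22 on the left and from 3 of 238 to 13 of 26 on the right.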

How the data were processed

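The values are log2 probe set levels as the authors deposited them; the submitters' processing notes name RMA without a version. That method normally brings the probe intensities of all arrays to one distribution, and the Dap12-KO IL-4 column is nonetheless narrower. Amplification in 2 cycles favours the 3′ part of transcripts. Of 45101 probe sets, 34945 named 1 gene in GEO's platform annotation, 932 named several, 9160 none and 64 were controls; symbols were updated through Entrez identifiers to the RefSeq table of GRCm38.p6 (34741 matched). The 18193 genes were reduced to 12767 with at least 1 reading at 6.39 or more, the median over all probe sets and arrays. Samples were grouped by title.

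Differences were computed with no test, as deposited and after cyclic loess over the 4 arrays (limma 3.58.1, R 4.3.3, 3 iterations). Other steps used Python 3.11.15, numpy 2.4.6, pandas 2.3.3 and matplotlib 3.10.9. The rescaling was run on simulated data with an array narrowed evenly towards its median, and only unchanged bright probe sets had to pass. That check cannot show how the rescaling does for dim genes or for the uneven trend with level seen here. Alternatives were cyclic loess over the 2 arrays, quantile normalization, median centring, medians of 20 level bins, other floors, 3-fold, and the median over probe sets. A probe set entered the counts by the same floor. Probe-level files and detection calls were not used here.

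The 346 genes named by rule include Tyrobp and the 12 with the highest and the 12 with the lowest difference among those 2-fold in both scalings. They also hold the 12 and 12 by mean over probe sets that all passed, and list members that passed or had the largest differences. All measured members of the alternative activation, SOCS and marker lists, and genes opposite in the genotypes, complete them. Not all are given above, such as Chil4, Tfrc and Matk. Il4i1, 1 of the 22 alternative activation genes higher in both scalings, read 6.08 untreated and 7.55 with IL-4. The members, the 31 gene lists, the 9 marker lists and the rule were chosen with earlier results of these data known. The split by level against wild type, the motif shares of genes called in both genotypes, and members named only as comparisons (such as Dcstamp, Mmp9, Syk and Mki67) were chosen after values had been seen. Genes with no probe set naming them alone were not analysed here.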

Additional observations from a re-analysis of the deposited data

Results flagged for a closer look

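Among genes above the floor, 2 were 2-fold in opposite directions in the 2 genotypes in both scalings, and the difference between genotypes was not tested. Vsig8, an immunoglobulin family membrane protein, read 6.82 untreated and 7.89 with IL-4 on the Dap12-KO arrays, a difference of 1.07, and 9.11 and 6.84 on the wild type arrays, a difference of −2.28. Rnf180, a ubiquitin ligase, read 9.15 and 7.28 on the Dap12-KO arrays, a difference of −1.86, and 7.84 and 8.88 in wild type, a difference of 1.04.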

How the results depend on the processing

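The count of genes lower with IL-4 depended most on the scaling. It was 2249 as deposited, 754 after cyclic loess over 4 arrays, 920 over the 2 arrays, 1115 after quantile normalization, 1164 against level bins, 2863 after median centring and 568 at 3-fold. For probe sets lower it was 4893 as deposited, 2024, 2596, 3009 and 1222 under cyclic loess over 4 arrays, over 2 arrays, quantile normalization and 3-fold. Genes higher numbered 1026 as deposited and 770 to 1506 over the scalings, but 329 with the floor at the 75th percentile and 243 at 3-fold, and probe sets higher 570 and 429 instead of 2015. The settings that raise the floor or the fold test fewer genes or ask for more by construction; otherwise the cause was not tested. With the median of probe set levels the difference turned positive for Arsb (0.38), Ndrg1 (0.37), Neu1 (0.47) and Sema4d (0.11); those medians can come from different probe sets on the 2 arrays, and the median of the probe sets' own differences, added after seeing the data, was −0.10, −1.14, −0.69 and 0.43. No other named gene that was 2-fold as deposited changed sign, while genes with smaller differences, such as Il4ra (−0.24 as deposited, 0.42 after cyclic loess), did. Of 346 named genes, 156 moved by more than 1.5-fold with cyclic loess over 4 arrays and 23 with quantile normalization, and none of the 346 wild type differences did. No paired analysis was possible because each group is 1 array and the labels give no replicate numbers. Without replicates no array could be left out, and signal near background limits the size of differences of dim genes.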
